A study of Mus musculus with 18 samples.

Results

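The genes described here are those that differed between 41BB+ and 41BB- CD8+ T cells on average over 3 times and had the same sign of that difference at each of them. Of 13150 genes with enough counts to be tested, 2013 (15.3%) had a mean difference past an adjusted p of 0.05, 1098 of them (8.35%) with the higher level in 41BB+ cells and 915 (6.96%) with the lower. Of the 2013, 394 (3.0% of the genes tested) had 1 sign at 0, 24 and 72 h. Of the 394 genes, 165 (1.25% of the genes tested) were higher and 229 (1.74%) were lower in 41BB+ cells. The mean difference and its 3 signs chose these genes, and the difference at each time enters that mean, so those values and their p-values are given as a description. The test of a change of the difference from time to time uses the same 3 differences. Asking for 1 sign removes genes whose difference turns round, so counts of that change among the 394 genes, or among those the rule left out, are also a description.

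41BB (CD137), encoded by Tnfrsf9, belongs to the TNF receptor superfamily, costimulates T cells and is displayed by them after antigen receptor signalling. A CD8+ T cell that meets antigen leaves quiescence, grows, divides and takes up effector functions, and many of its transcripts rise and fall again within days. Transcription factors such as Ikaros family members and Myb, and surface receptors of the SLAM family, are known to mark or maintain particular T cell states.

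The cells came from spleens and lymph nodes of wild-type C57BL/6J mice. They were sorted from the CD8+ pool into 41BB+ cells, which the study names Tpam, and 41BB- cells, which it calls conventional. RNA was taken directly from the sorted cells (0 h, no activation) or, in the other groups, once they had been cultured for 24 h or 72 h with Dynabeads carrying antibodies to CD3 and CD28, at a ratio given as 1:2. The sort came before the culture, so the names 41BB+ and 41BB- refer to the cells as sorted. There were 3 libraries in each of 6 groups, described as biological triplicates and numbered as experiments 1 to 3, and the labels used here do not say if animals were pooled for a triplicate, nor how old the mice were.

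Total counts per library ran from 3085241 to 4239795, and mitochondrial genes took 6.15% to 11.4% of them. Levels below are CPM (a gene's counts over all counts of the library, times 1e+06), listed in the order of experiments 1, 2 and 3, and differences are log2 fold changes (log2FC), positive when higher in 41BB+ cells. Adjusted p-values are from edgeR's quasi-likelihood test with Benjamini-Hochberg adjustment over all genes tested. Coordinates are on GRCm38. In bulk RNA, fewer cells with a transcript and less of it per cell cannot be told apart.

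The sort gene itself was not among the 394. Tnfrsf9 (chromosome 4, 150914562 to 150946102) stood at 373, 421 and 374 CPM in 41BB+ and at 4.96, 6.81 and 8.45 CPM in 41BB- libraries at 0 h. At 24 h it was 137, 129 and 149 CPM in 41BB+ and 172, 184 and 194 CPM in 41BB- libraries. At 72 h it was 18.4, 33.8 and 11.6 CPM in 41BB+ and 44.0, 51.7 and 61.3 CPM in 41BB- libraries. The groups did not overlap at any time, but the order was turned round after activation, with a log2FC of 5.83 at 0 h, -0.29 at 24 h (adjusted p = 0.488) and -1.33 at 72 h (adjusted p = 0.000168). Cd8a, a chain of the CD8 coreceptor, lay between 323 and 699 CPM in all 18 libraries. Its log2FC was -0.35 at 0 h (adjusted p = 0.00258), -0.37 at 24 h (adjusted p = 0.0132) and 0.17 at 72 h (adjusted p = 0.22). The summed level of 6 CD8 T cell markers was 1900 to 2088 CPM in 41BB+ and 3109 to 3344 CPM in 41BB- libraries at 0 h. At 24 h it was 1136 to 1223 against 1472 to 1513 CPM, and at 72 h 2244 to 2682 against 1823 to 2223 CPM. Cd4 had at most 1.28 CPM in any library and was not tested.

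The 41BB+ library of experiment 2 at 24 h stood apart by markers of other cells. The summed level of 18 genes of monocytes, macrophages and neutrophils was 108 CPM in it, against 0.638 to 16.6 CPM in the other 24 h libraries. In that library Lyz2, a lysozyme of myeloid cells, was at 45.9 CPM and Csf1r, the receptor of macrophage colony-stimulating factor, at 10.9 CPM, and both were at 0 in the 41BB+ libraries of experiments 1 and 3 at 24 h. The next highest sum at 24 h, 16.6 CPM, was that of the 41BB- library of experiment 2, with Lyz2 at 6.86 CPM and Csf1r at 1.89 CPM. Lyz2 was at 0 in the 41BB- libraries of experiments 1 and 3 at 24 h. The 41BB+ library of experiment 2 also had the highest 24 h sum of B cell markers (279 CPM, against 148 to 196 CPM). The same held for NK cell markers (41.9 CPM, against 10.8 to 21.3 CPM). Its sums for markers of CD4 helper, innate-like T, plasma, dendritic, erythroid and stromal cells were not the highest at 24 h. Without the 24 h pair of experiment 2, 299 genes met the rule, of which 245 were among the 394. Without the 24 h pair of experiment 1 or 3 the number was 327 and 285, of which 257 and 239 were among the 394.

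The promoters of the genes that passed the test at each of the 3 times are shown first, because the sections that follow start from these genes. RefSeq promoters were found for 9219 of 13142 tested genes with a symbol, 117 of the 165 higher and 174 of the 229 lower ones. Those shown are the 250 bases before the start in the RefSeq tables of GRCm38.p6, with matches to 8 searched motifs in capitals. The motifs, sought on both strands, were CACGTG (E-box), TTTGGCG (E2F), TGANTCA (AP-1), an interferon-stimulated element, CCGGAAG (ETS), TGTGGT (RUNX), CTTTGA (TCF and LEF) and TGACGTC (CRE). Myb lies on chr10:21160985-21161234 (minus strand), Trat1 on chr16:48772063-48772312 (minus strand), Slamf6 on chr1:171917212-171917461 (plus strand), and of 3 windows of Adam19 the one nearest to the annotated gene start is on chr11:46055734-46055983 (plus strand). Ikzf2 is named only.
Myb: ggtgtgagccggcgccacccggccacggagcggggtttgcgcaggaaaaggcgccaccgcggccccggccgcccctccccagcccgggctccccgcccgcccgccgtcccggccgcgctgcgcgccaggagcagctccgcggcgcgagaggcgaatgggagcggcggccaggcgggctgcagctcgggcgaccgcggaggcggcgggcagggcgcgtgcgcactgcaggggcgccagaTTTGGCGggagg
Trat1: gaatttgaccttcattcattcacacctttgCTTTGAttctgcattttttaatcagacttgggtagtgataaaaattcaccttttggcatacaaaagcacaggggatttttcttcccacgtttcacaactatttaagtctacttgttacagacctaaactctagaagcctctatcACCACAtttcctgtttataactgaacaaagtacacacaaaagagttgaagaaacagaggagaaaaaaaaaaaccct
Slamf6: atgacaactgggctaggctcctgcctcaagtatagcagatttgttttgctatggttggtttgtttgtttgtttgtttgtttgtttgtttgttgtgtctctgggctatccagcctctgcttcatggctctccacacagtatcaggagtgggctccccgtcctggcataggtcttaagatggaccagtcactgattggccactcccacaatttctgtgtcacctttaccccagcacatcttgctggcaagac
Adam19: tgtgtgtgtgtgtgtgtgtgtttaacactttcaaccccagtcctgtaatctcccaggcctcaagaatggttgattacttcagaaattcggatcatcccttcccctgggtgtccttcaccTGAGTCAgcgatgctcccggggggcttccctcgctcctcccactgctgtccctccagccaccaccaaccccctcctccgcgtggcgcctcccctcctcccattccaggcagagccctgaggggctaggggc

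In these windows Myb had an E2F match 12 bases before the start, Trat1 had a TCF and LEF match at 220 bases and a RUNX match on the other strand at 76 bases, Adam19 had an AP-1 match at 131 bases, and Slamf6 had no match. Over 11827 promoter windows of the tested genes (which also hold the first bases after the start), 2.51% held the E2F letters, 12.9% the RUNX letters, 11.9% the TCF and LEF letters and 4.74% the AP-1 letters. Among 143 windows of the higher genes the shares were 2.10%, 12.6%, 14.7% and 4.20%, and among 246 windows of the lower genes they were 3.25%, 15.4%, 8.94% and 6.91%. The ETS letters were in 18.0% of all windows, 16.8% of those of higher genes and 9.76% of those of lower genes. A match is a description of the letters and not of binding.

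Ikzf2, Myb, Trat1, Slamf6 and Adam19 passed the test at each of the 3 times with 1 sign (0.0380% of the genes tested). The first 4 were higher in 41BB+ cells (0.0304%) and Adam19 was lower (0.00760%). In all 5, each of the 9 pairs of libraries of 1 time and experiment had the same direction. Their levels by library are shown together with those of Tnfrsf9.

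**Figure D1:**
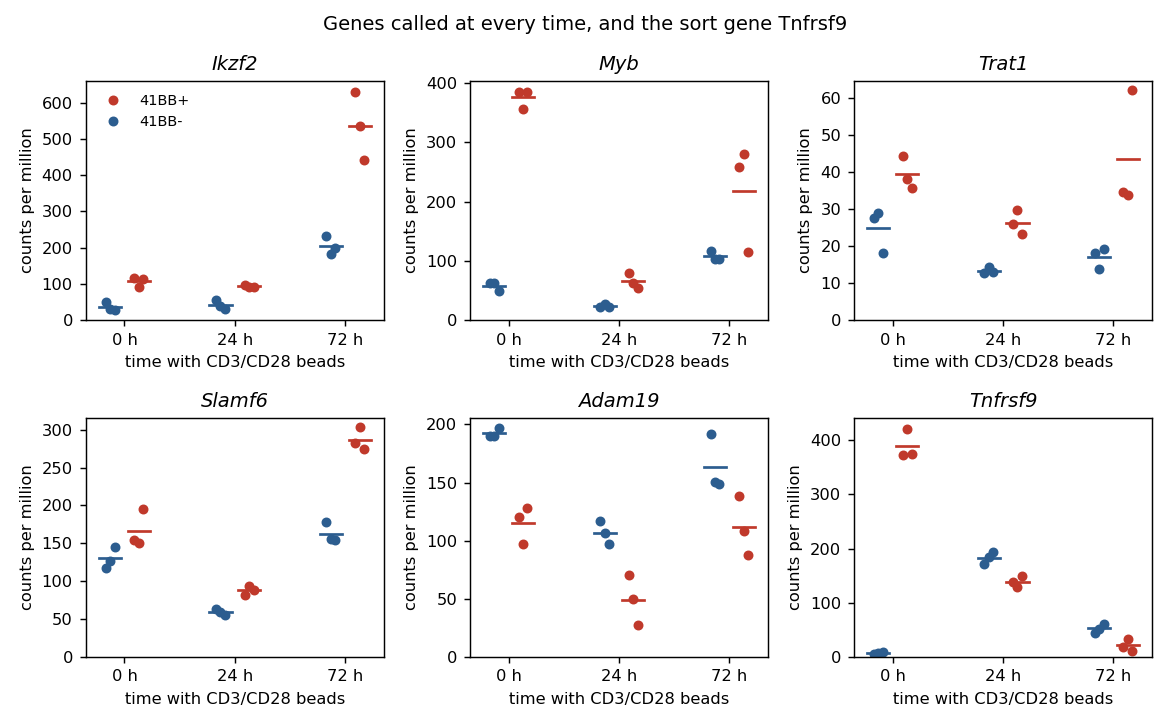
Level in CPM (y axis) of Ikzf2, Myb, Trat1, Slamf6, Adam19 and Tnfrsf9 in each library at 0, 24 and 72 h (x axis); points are libraries of 41BB+ (red) and 41BB- (blue) cells and lines are the means of 3. Ikzf2 kept nearly the same ratio between the populations at each time (log2FC 1.55, 1.32 and 1.42), though its distance in CPM was widest at 72 h. Tnfrsf9 was higher in 41BB+ cells at 0 h (5.83) and lower at 72 h (-1.33).

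Ikzf2 (chromosome 1, 69531214 to 69687245) encodes Helios, an Ikaros family zinc finger factor known from regulatory T cells and from subsets of CD8+ T cells. At 0 h it stood at 115, 90.7 and 115 CPM in 41BB+ and at 50.5, 31.4 and 28.1 CPM in 41BB- libraries. At 24 h the values were 96.4, 91.4 and 92.0 against 56.2, 38.1 and 29.8 CPM, and at 72 h they were 629, 535 and 443 against 231, 182 and 200 CPM. The level rose in both populations by 72 h and the groups did not overlap at any time. The log2FC was 1.55, 1.32 and 1.42 at 0, 24 and 72 h (mean 1.43 ± 0.0842, SE, adjusted p = 3.18e-12), and a change of the difference over the times was not detected (adjusted p = 0.683). In a fit with a single population effect common to the times, Ikzf2 was the 1 gene called (adjusted p = 0.00105).

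Myb (chromosome 10, 21124935 to 21160984) encodes a transcription factor of immature and cycling blood cells that is also known from memory T cells. It stood at 385, 357 and 385 CPM in 41BB+ and at 62.9, 62.9 and 48.6 CPM in 41BB- libraries at 0 h. At 24 h it was at 79.9, 61.8 and 54.2 against 22.7, 27.4 and 22.7 CPM, and at 72 h at 258, 281 and 115 against 117, 103 and 103 CPM. The groups were apart at 0 h and 24 h and overlapped at 72 h, where the 41BB+ library of experiment 3 lay below the highest 41BB- library. Its difference became smaller, from a log2FC of 2.69 at 0 h to 1.52 at 24 h and 0.96 at 72 h, with a change over time (adjusted p = 0.000129).

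Trat1 (chromosome 16, 48730774 to 48772021) encodes an adaptor, also called TRIM, that binds the T cell receptor complex. It stood at 44.5, 38.0 and 35.8 CPM in 41BB+ and at 27.6, 28.8 and 18.1 CPM in 41BB- libraries at 0 h. It was at 26.1, 29.7 and 23.3 against 12.8, 14.4 and 13.1 CPM at 24 h and at 34.6, 33.8 and 62.2 against 18.2, 14.0 and 19.3 CPM at 72 h. The groups did not overlap at any time, and the log2FC was 0.67, 1.08 and 1.34 (change over time, adjusted p = 0.154). Without experiment 3, or without its 0 h pair, Trat1 no longer passed at each of the times, while its mean difference passed in all 18 fits that left out an experiment or a pair or changed the method (log2FC 0.94 to 1.11). Those 18 do not include the fit with a single population effect common to the times. In it Myb, Trat1, Slamf6 and Adam19 were not called (adjusted p = 0.101, 0.0676, 0.196 and 0.176).

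Slamf6 (chromosome 1, 171917515 to 171953170) encodes Ly108, a self-binding receptor of the SLAM family known from progenitor-like CD8+ T cells. It stood at 154, 150 and 195 CPM in 41BB+ and at 118, 127 and 145 CPM in 41BB- libraries at 0 h, at 81.6, 93.6 and 88.2 against 62.5, 59.8 and 55.1 CPM at 24 h, and at 282, 303 and 275 against 179, 155 and 154 CPM at 72 h. The groups did not overlap at any time. In contrast to Myb, its difference was larger at the later times (log2FC 0.34, 0.69 and 0.85; change over time, adjusted p = 0.0187). It no longer passed at each of the times without experiment 1 or 3 or without the 0 h pair of either, and its mean difference passed in the same 18 fits (log2FC 0.59 to 0.69).

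Adam19 (chromosome 11, 46055992 to 46147343) encodes a membrane-bound metalloproteinase of the ADAM family. It stood at 120, 97.0 and 128 CPM in 41BB+ and at 190, 190 and 197 CPM in 41BB- libraries at 0 h. It was at 70.3, 49.6 and 27.1 against 117, 106 and 96.9 CPM at 24 h and at 139, 108 and 87.3 against 192, 151 and 149 CPM at 72 h. All 41BB+ libraries lay below all 41BB- libraries of their time (log2FC -0.76, -1.08 and -0.53; change over time, adjusted p = 0.0786). It no longer passed at each of the times without experiment 2 or 3, without the 72 h pair of experiment 3, or in the fit without the replicate block, and its mean difference passed in the 18 fits (log2FC -0.90 to -0.69).

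Most of the 394 genes were not called at more than 1 time. At 0 h 292 of them passed (74.1%, against 41.7% of all genes tested), at 24 h 33 passed (8.38%, against 4.39%), and at 72 h 96 passed (24.4%, against 22.6%). Of all genes tested, 23% were called higher and 18.8% lower at 0 h, 2.51% and 1.88% at 24 h, and 8.33% and 14.3% at 72 h. There were 296 genes called at exactly 1 time, 235 of them at 0 h, 12 at 24 h and 49 at 72 h. A further 55 were called at 2 times (39 of them at 0 and 72 h), 5 at all 3, and 38 at none. Of all 13150 genes tested, whatever the signs, 3759 were called at exactly 1 time and 2225 at 2 times (2016 of them at 0 and 72 h). A further 278 were called at all 3 and 6888 at none. The median absolute log2FC was 0.86 at 0 h, 0.27 at 24 h and 0.33 at 72 h, beside 0.56, 0.22 and 0.37 over all genes tested. The largest of the 3 differences fell at 0 h in 278 of the 394 genes (70.6%, against 57.2% of all genes tested). The working description of these genes as lasting therefore goes beyond the data, and they are called genes of 1 direction here.

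The change of the difference over the times was called for 151 of the 394 genes (38.3%), 71 of the 165 higher and 80 of the 229 lower ones, beside 43.1% of all genes tested. When the mean was taken over 24 h and 72 h alone, 83 of the 394 genes passed (21.1%; 45 higher and 38 lower), beside 7.35% of all genes tested (2.61% higher and 4.75% lower). A mean difference of at least 2-fold was reached by 66 of the 394 genes (27 higher and 39 lower) and by 89 of the 1619 called genes without 1 sign. Of all genes tested, 1.18% passed with such a difference and 370 had one, called or not. In 80 of the 394 genes all 9 pairs had 1 direction (12 higher and 68 lower), beside 0.943% of all genes tested (0.137% higher and 0.806% lower). Because the mean over the 3 times and its signs chose the 394, their gap to all genes tested in these counts is partly fixed by the choice. The direction of a pair is that of its CPM, whereas the log2FC also uses normalization factors (TMM), so the 2 can differ. Of the called genes without 1 fitted sign, 6 had all 9 pairs lower and 0 had all 9 higher. How far this shapes the numbers of higher and lower genes was not tested.

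**Figure D2:**
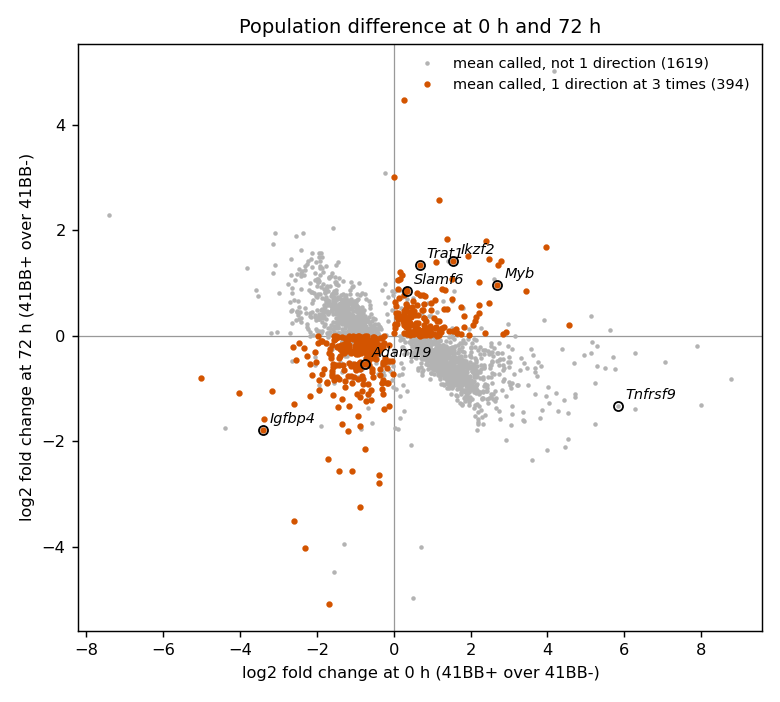
Log2 fold change of 41BB+ over 41BB- cells at 0 h (x axis) and at 72 h (y axis) for the 2013 genes with a called mean difference; orange points are the 394 genes of 1 direction and grey points the other 1619. The orange points fill the upper right and lower left quadrants by the rule, most of them close to 0 at 72 h, and the grey genes lie mainly in the other quadrants.

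Beside the 4 genes above, the higher genes with the largest smallest difference, all 9 pairs higher and a mean of at least 5 CPM were Fbxl18, Ccnj, Inpp5f, Ckap2, Tex10, Spen and Cd2bp2. Ckap2, a spindle protein of dividing cells, was at 13.5, 6.58 and 9.21 CPM in 41BB+ and at 2.79, 2.27 and 1.51 CPM in 41BB- libraries at 0 h, and at 44.4, 38.7 and 42.3 against 41.1, 36.9 and 29.0 CPM at 72 h. The log2FC of Ckap2 became smaller, from 2.12 to 0.70 and 0.28 (change over time, adjusted p = 0.0013). Inpp5f, a phosphoinositide phosphatase, passed at 0 h (0.81, adjusted p = 0.00309) and at 72 h (0.76, adjusted p = 0.00746), with 0.29 at 24 h. Spen, a large transcriptional repressor, had small differences of 0.40, 0.23 and 0.26. Fbxl18, which encodes an F-box protein, had 0.96, 0.67 and 0.49 and lost the call of its mean difference without experiment 1 (adjusted p = 0.0503). Tex10 (0.28, 0.27 and 0.33) lost it without experiment 1, 2 or 3 (adjusted p up to 0.0941), and Cd2bp2 (0.15, 0.35 and 0.35) without experiment 2 or 3 (adjusted p = 0.0859 and 0.0838). Ccnj, which encodes a cyclin (0.51, 0.33 and 0.66), lost it in 8 of 12 fits that left out an experiment or a pair (adjusted p 0.0502 to 0.217) and without the replicate block (adjusted p = 0.0754).

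The lower genes named by the same rule were Igfbp4, Pxylp1, Dennd3, Mirt1, Pmaip1, Mxi1, Susd3, Dusp5, Disc1, Plk3, Adam19 and Narf. Igfbp4 (chromosome 11, 99041244 to 99054392), which encodes a binding protein of insulin-like growth factors and is known as a transcript of naive T cells, had the largest absolute mean difference of these 12. It stood at 14.1, 12.3 and 27.9 CPM in 41BB+ and at 155, 213 and 194 CPM in 41BB- libraries at 0 h, at 13.9, 14.6 and 14.6 against 20.4, 28.6 and 19.6 CPM at 24 h, and at 2.47, 5.82 and 6.19 against 12.4, 20.9 and 17.5 CPM at 72 h. The groups did not overlap at any time. Its log2FC was -3.42 at 0 h, -0.55 at 24 h (adjusted p = 0.201) and -1.78 at 72 h (adjusted p = 1.23e-05), so the difference narrowed and widened again (change over time, adjusted p = 1e-08).

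Pmaip1 (Noxa), a BH3-only protein that promotes apoptosis, was at 4.42, 3.72 and 3.68 CPM in 41BB+ and at 16.4, 15.6 and 8.45 CPM in 41BB- libraries at 0 h. It was at 7.37, 10.6 and 7.41 against 18.2, 21 and 13.9 CPM at 24 h and at 17.3, 13.7 and 7.81 against 24.2, 31.7 and 17 CPM at 72 h. The 24 h and 0 h groups were apart and those at 72 h overlapped by 1 library on each side (log2FC -1.74, -0.94 and -0.89; change over time, adjusted p = 0.204). Plk3, a stress-response kinase, had a log2FC of -1.30, -0.50 and -0.65, and the call was made at 0 h.

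Mxi1 and Dusp5 act on growth signals. Mxi1, a MAX-binding antagonist of MYC, was at 6.77, 8.01 and 7.10 CPM in 41BB+ and at 17, 15.6 and 20.2 CPM in 41BB- libraries at 0 h, and at 22.5, 20.1 and 23.2 against 34.5, 27.6 and 82.6 CPM at 72 h. Its log2FC was -1.28, -0.59 and -0.96 (change over time, adjusted p = 0.427). Dusp5, a nuclear phosphatase of the kinase ERK that is induced by it, was at 43.0, 32.3 and 35.0 CPM in 41BB+ and at 158, 146 and 53.1 CPM in 41BB- libraries at 0 h, and at 86.2, 85.9 and 82.3 against 137, 146 and 143 CPM at 24 h. Its log2FC was -1.59 and -0.63 at 0 and 24 h, both called, and -0.54 at 72 h (adjusted p = 0.0662). The difference became smaller (change over time, adjusted p = 0.00385).

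The other lower genes were Pxylp1 (log2FC -2.19, -0.62 and -1.14; a phosphatase of glycosaminoglycan synthesis), Dennd3 (-1.34, -0.85 and -1.68; an exchange factor of a Rab GTPase), the noncoding RNA Mirt1 (-1.95, -0.84 and -1.03), Susd3 (-1.57, -0.62 and -0.59), Disc1 (-1.44, -0.69 and -0.55; a scaffold protein) and Narf (-0.87, -0.47 and -0.50). All 6 were called at 0 h, none at 24 h, and Pxylp1, Dennd3 and Narf also at 72 h. Mirt1 lost the call of its mean difference in the fit without the replicate block (adjusted p = 0.0995).

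**Figure D3:**
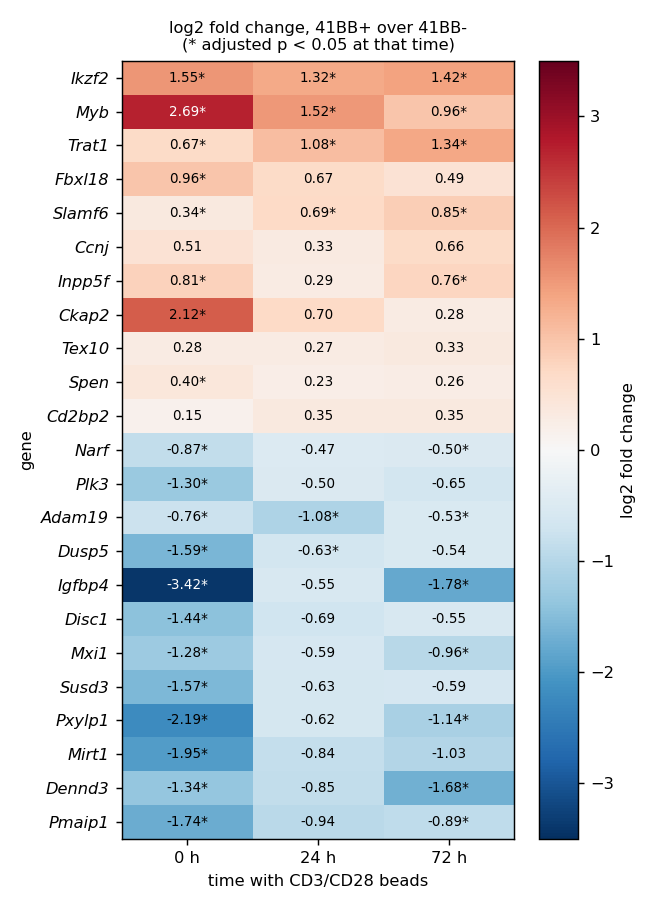
Log2 fold change of 41BB+ over 41BB- cells (colour and printed value) at 0, 24 and 72 h (columns) for the 11 higher and 12 lower genes with all 9 pairs in 1 direction (rows); an asterisk marks an adjusted p under 0.05 at that time. Asterisks stand in all columns for Ikzf2, Myb, Trat1, Slamf6 and Adam19, and most of the other genes have one at 0 h.

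Gene lists of T cell biology were counted next. They were compiled with earlier results of these data known, so a count is a description, to be read beside the 3.0% of all genes tested that were of 1 direction. Of 39 lists, 24 held at least 1 gene of 1 direction, and 39 of the 394 genes were in any list. In these counts, higher or lower at all times means a called mean difference with the same fitted sign at each time. A call at each time is not required, and the sign of a small difference that was not called is not established.

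Of 13 tested genes of a regulatory T cell list, 4 were higher at all times (Ikzf2, Tnfrsf4, Foxp3 and Nrp1) and 0 were lower at all times. By single times, 5 were called higher and 1 lower at 0 h, 1 higher at 24 h, and 2 higher and 1 lower at 72 h. The list's median log2FC was 0.96, 0.26 and -0.17 at 0, 24 and 72 h, beside 0.01, 0.02 and -0.05 over all genes tested. Foxp3, which directs the regulatory T cell lineage, was scarce. It stood at 1.47, 5.15 and 2.10 CPM in 41BB+ and at 1.55, 0 and 0 CPM in 41BB- libraries at 0 h, at 2.83, 3.18 and 2.30 against 3.19, 1.89 and 1.14 CPM at 24 h, and at 19.2, 25.3 and 9.70 against 7.90, 3.49 and 4.01 CPM at 72 h. The 72 h groups did not overlap and those at 0 h and 24 h did, and without experiment 2 the call of its mean difference was lost (adjusted p = 0.21). Tnfrsf4 (OX40), a costimulatory receptor, had a log2FC of 0.96, 0.34 and 0.63, was called at 0 h alone, and lost the call of its mean without experiment 2 (adjusted p = 0.0709). Nrp1, a coreceptor known from regulatory T cells of thymic origin, had a log2FC of 0.89 at 0 h and 0.07 at 72 h. Cd4 was not detected beyond 1.28 CPM.

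Of 29 tested TNF receptor superfamily members and ligands, 2 were higher at all times (Tnfsf11 and Tnfrsf4) and 1 was lower (Tnfsf10). Tnfsf11 (RANKL), a ligand that T cells display on activation, was at 23.9, 14.3 and 22.9 CPM in 41BB+ and at 6.82, 0.972 and 0.603 CPM in 41BB- libraries at 0 h. At 72 h it was at 3.02, 14.8 and 9.43 against 5.53, 8.14 and 11.3 CPM, with overlapping groups, and its log2FC went from 2.93 to 0.29 and 0.07 (change over time, adjusted p = 0.000124). Tnfsf10 (TRAIL), a death-inducing ligand, had a log2FC of -0.99, -0.48 and -0.35 and lost the call of its mean without experiment 2 (adjusted p = 0.0843).

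Of 28 tested effector and memory transcription factors, Ikzf2 was higher at all times and Runx1 and Id2 were lower. Runx1, a factor of T cell development, was at 108, 58.9 and 81.0 CPM in 41BB+ and at 337, 208 and 143 CPM in 41BB- libraries at 0 h, and its log2FC of -1.44, -0.20 and -0.19 became smaller (change over time, adjusted p = 1.59e-05). Without the replicate block the call of its mean was lost (adjusted p = 0.332). Id2, an inhibitor of E proteins that supports effector cells, had a log2FC of -1.13, -0.09 and -0.76 and was called at 0 h and 72 h (change over time, adjusted p = 0.0449). Gata3, a factor of T helper lineages also present in CD8+ T cells, was lower in all 9 pairs (log2FC -1.62, -0.42 and -0.37).

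Of 32 tested genes of the early response to the T cell receptor, 11 had a called lower mean difference, 1 a called higher one, and 4 were lower at all times (Fosl2, Dusp5, Maff and Ier2). Fosl2, an AP-1 factor, was at 18.6, 12.9 and 9.21 CPM in 41BB+ and at 112, 95.6 and 44.6 CPM in 41BB- libraries at 0 h, and at 13.6, 11.9 and 21.7 against 29.4, 34.3 and 29.8 CPM at 24 h. The groups were apart at both times and overlapped at 72 h, and the log2FC went from -2.62 to -0.89 and -0.21 (change over time, adjusted p = 1.43e-05). Maff, a small MAF factor, was at 2.06, 1.72 and 1.05 CPM against 43.4, 35.3 and 8.14 CPM at 0 h (log2FC -4.02, then -0.16 and -1.09). Ier2, an immediate early gene, had a log2FC of -1.34, -0.10 and -0.02. All 4 had a called change over time.

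Of 23 tested genes of quiescence and cell cycle inhibition, 12 had a called lower mean difference. The fitted difference was negative at all times in 4 of them (Klf6, Mxi1, Klf7 and Cdkn1a). Klf6, a zinc finger factor, was at 36.5, 55.2 and 43.7 CPM in 41BB+ and at 234, 332 and 183 CPM in 41BB- libraries at 0 h, and the groups lay close together at 24 h (log2FC -0.05) and 72 h (-0.13). Its change over time had the smallest adjusted p of the 394 genes with a mean of at least 5 CPM (3.23e-12). Cdkn1a (p21), an inhibitor of cyclin-dependent kinases, had a log2FC of -0.74 at 0 h (adjusted p = 0.466) and -2.15 at 72 h (adjusted p = 8.5e-05). Klf7 had -0.98, -0.34 and -0.03, and its difference at 72 h was not detected (adjusted p = 0.926).

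Among receptors, the alpha chain of the interleukin 18 receptor, Il18r1, was lower in all 9 pairs. It stood at 16.2, 19.7 and 18.1 CPM in 41BB+ and at 96.1, 123 and 94.4 CPM in 41BB- libraries at 0 h, at 12.8, 18.8 and 13.3 against 30.0, 20.8 and 16.8 CPM at 24 h, and at 95.8, 126 and 195 against 169, 180 and 220 CPM at 72 h. The groups were apart at 0 h and overlapped at the later times, and the log2FC was -2.54, -0.44 and -0.46 (change over time, adjusted p = 4.84e-09). It was the 1 gene of 1 direction among 33 tested cytokines, cytokine receptors and SOCS genes. Of the homing list, Gpr183, an oxysterol receptor that guides cells in lymphoid tissue, had a log2FC of -1.0, -0.46 and -0.22, and Itgal, the alpha chain of the integrin LFA-1, one of 0.52, 0.10 and 0.02. Itgal lost the call of its mean without experiment 3 (adjusted p = 0.2). Of the memory and residency list, Rgs1, a regulator of G protein signalling, had a log2FC of -1.13, -0.29 and -0.32, and Cxcr6, the receptor of CXCL16, one of -0.03, -0.70 and -0.73. Rgs1 lost the call of its mean without experiment 1 (adjusted p = 0.112) and without the replicate block (adjusted p = 0.164), and Cxcr6 without experiment 2 or 3 or the 0 h pair of experiment 3 (adjusted p 0.0626 to 0.0848).

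Of 5 tested receptors of NK type, Klrc1 and Klrk1 were higher at all times and 0 were lower at all times. By single times, 3 of the 5 were called higher and 2 lower at 0 h, 2 were called lower at 24 h, and 3 were called higher at 72 h. Klrc1 (NKG2A), an inhibitory receptor, was at 13.8, 14.9 and 17.4 CPM in 41BB+ and at 2.79, 0.648 and 5.43 CPM in 41BB- libraries at 0 h, with overlapping groups at 24 h and 72 h (log2FC 2.48, 0.20 and 1.45; change over time, adjusted p = 0.0264). Klrk1 (NKG2D), an activating receptor, had a log2FC of 1.30, 1.26 and 0.51 and lost the call of its mean without experiment 3 (adjusted p = 0.0852) and without the replicate block (adjusted p = 0.163). The summed level of 10 NK cell genes was 535 to 612 CPM in 41BB+ and 56.7 to 63.3 CPM in 41BB- libraries at 0 h, nearly all of it from Eomes, which memory and cytotoxic T cells also express. The other 9 genes summed to 4.12 to 5.15 CPM in 41BB+ and 1.51 to 4.34 CPM in 41BB- libraries at 0 h, with overlapping groups, and to 1.28 to 10.6 CPM in the libraries of the later times. The 10.6 CPM was in the 41BB+ library of experiment 2 at 24 h, and the rest of the later libraries had at most 4.60 CPM. The part of NK cells in these 2 differences was not tested. Neither of the 2 tested genes of that NK cell list was among the 394.

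In 7 metabolic lists 5 of 179 tested genes were of 1 direction (2.79%, beside 3.0% of all genes tested). Of the glycolysis list Pdk1, a kinase that restrains pyruvate entry into mitochondria, was lower (-0.80, -0.06 and -0.16), of the fatty acid list Cpt1a, the carnitine transferase of mitochondrial import, was lower (-1.17, -0.39 and -0.0033), and of 39 nuclear genes of oxidative phosphorylation Ndufv2, a subunit of complex I, was higher (1.05, 0.08 and 0.03). Pdk1 lost the call of its mean without experiment 2 (adjusted p = 0.0535). All 3 were called at 0 h alone. Of 19 tested genes of polyamine synthesis, turnover and transport, which the study's title names, 1 was of 1 direction. This was Smox, which oxidises spermine, with a log2FC of -0.29, -0.98 and -1.09, called at 72 h, and its mean was not called without experiment 2 or 3 (adjusted p = 0.0766 and 0.066).

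The best known polyamine genes had differences that turned round. Odc1, which makes putrescine, stood at 288, 304 and 259 CPM in 41BB+ and at 64.8, 123 and 49.2 CPM in 41BB- libraries at 0 h, and at 71.9, 83.2 and 45.2 against 122, 104 and 94.8 CPM at 72 h. Its log2FC was 1.91, 0.29 and -0.68, and both ends were called. Srm, the spermidine synthase, had 3.08, 0.20 and -1.47, and Eif5a, the protein that carries the spermidine-derived hypusine, had 2.64, 0.13 and -1.23. The differences of Sms, Amd1, Oaz1, Azin1 and Sat1 also changed over the times, and that of Dhps was not shown to (adjusted p = 0.122).

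Growth and division lists had many called means and no gene of 1 direction. Of 33 tested S phase genes 20 had a called higher mean, 30 were called higher at 0 h and 32 were called lower at 72 h. Of 30 G2 and M phase genes 22 had a called higher mean, 27 were called higher at 24 h and 14 were called lower at 72 h. Of 32 ribosome biogenesis genes 24 had a called higher mean, 32 were called higher at 0 h and 29 were called lower at 72 h. The naive and central memory list had the opposite order, with 22 of 23 genes called lower at 0 h, 19 called higher at 72 h, and Igfbp4 as its 1 gene of 1 direction. The lists of coinhibitory receptors, CD8 and proximal T cell receptor signalling, MHC class I, Gimap and Schlafen families, and S100, annexin and galectin genes held 0 genes of 1 direction among 111 tested, with 19 to 30 genes a list, which at a share of 3.0% is near the background for any of them.

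**Figure D4:**
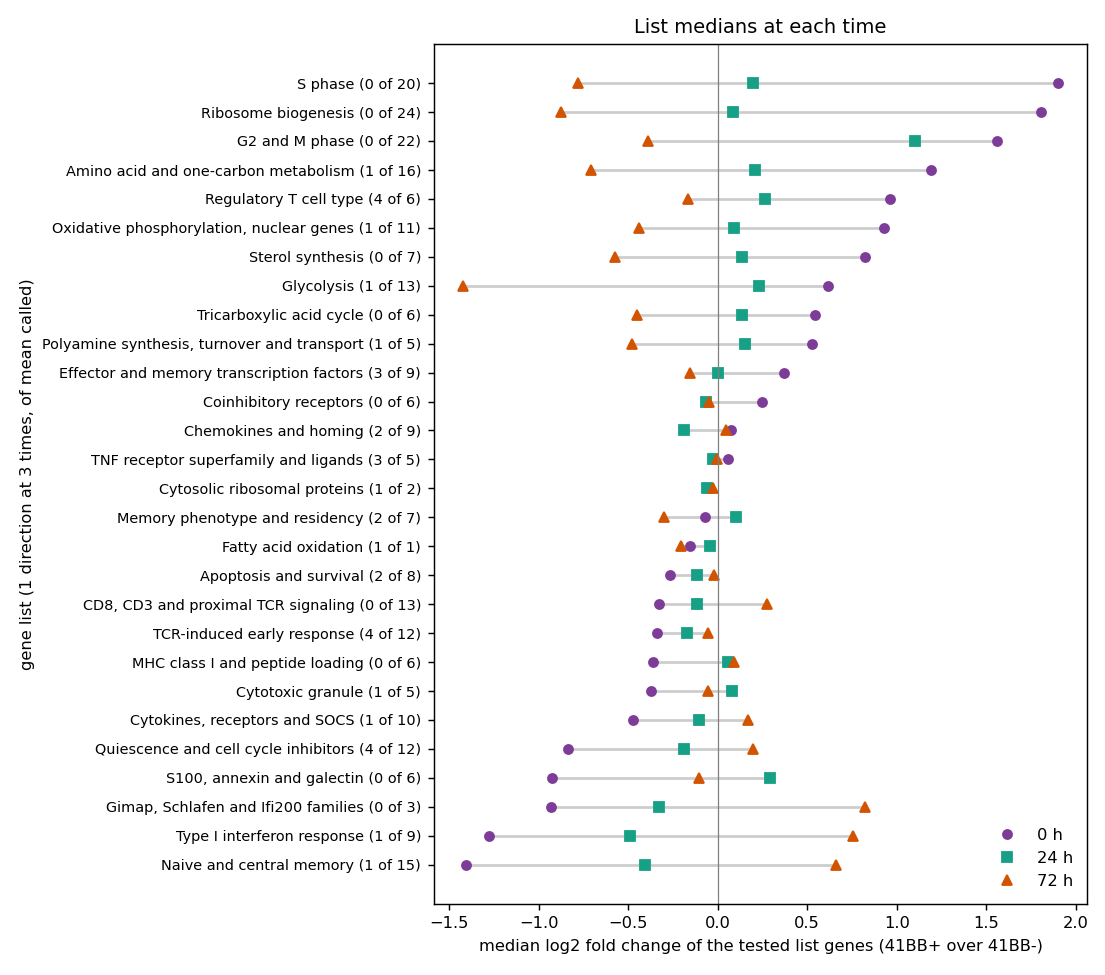
Median log2 fold change of 41BB+ over 41BB- cells (x axis) of the tested genes of each list (rows) at 0 h (circles), 24 h (squares) and 72 h (triangles); the label gives the number of genes of 1 direction among those with a called mean difference. The medians of S phase, ribosome biogenesis and naive genes lie on opposite sides of 0 at 0 h and 72 h.

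The 1619 genes with a called mean and not 1 sign show what the rule left out. Among the 5 with the smallest adjusted p, Ncl (nucleolin, a protein of ribosome production) was at 4389, 4339 and 4130 CPM in 41BB+ and at 854, 827 and 818 CPM in 41BB- libraries at 0 h, and at 888, 914 and 859 against 1769, 1586 and 1900 CPM at 72 h. The groups were apart at both times in opposite orders (log2FC 2.35, 0.23 and -0.94). Eomes, a T-box factor of memory and cytotoxic cells, was at 568, 606 and 531 against 52.4, 55.7 and 61.8 CPM at 0 h and at 9.33, 20.4 and 9.16 against 15.0, 17.1 and 19.1 CPM at 72 h. Ybx3 (log2FC 3.27, 0.38 and -0.65), Cd200 (5.13, -0.05 and 0.38) and Samhd1 (-2.0, -0.85 and 0.73) were the others. The change over time was called for 1589 of the 1619 genes, a count that the rule shapes.

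Markers of other cells and other scarce transcripts entered the 394 genes at low counts. Jchain, the joining chain of antibodies, had 10.9 CPM in the 41BB+ library of experiment 2 at 24 h and 0 in the other 5 libraries of that time, and that is the library with the high myeloid sum. Its mean was not called without that pair, and without the replicate block its adjusted p was 0.0587. H2-Aa, an MHC class II chain, was at 0.567, 3.98 and 0.256 CPM in 41BB+ and at 0, 0.473 and 0 CPM in 41BB- libraries at 24 h, and its mean was not called in 5 of 12 fits that left out an experiment or a pair, among them the fit without the 24 h pair of experiment 2 (adjusted p = 0.0717). Itga2b, an integrin chain of platelets, was at most 4.54 CPM in any library and lost its call in 11 of those 12 fits (adjusted p 0.0712 to 0.231). Ifit3b, an interferon-induced gene and no marker of another cell type, was at most 13.9 CPM and lost its call in 3 of the 12 fits, without experiment 1 (adjusted p = 0.0614), without experiment 2 and without the 72 h pair of experiment 2. No fold change is given for these 4, since a group of each was at 0 counts, as was the case in 8 of the 394 genes. The part of other cells in the differences of Jchain, H2-Aa and Itga2b was not tested.

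At the edge of the rule, Srrm2 was the last gene inside (adjusted p = 0.0497; log2FC 0.01, 0.35 and 0.05; not called in 8 of the 12 fits, nor without the replicate block, with adjusted p = 0.27) and Mmd the first of 1 sign outside (adjusted p = 0.0502; log2FC 0.67, 0.17 and 0.45). Of the 394 genes 366 were protein coding, and 363 had a mean of at least 5 CPM.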

How the data were processed

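The 394 genes and the gene lists were chosen with earlier results of these data known. Per the labels' protocols, the kit for the libraries was SMARTer Stranded Total RNA-Seq Kit v2. The submitters' processing notes name FastQC 0.11.9, Trimmomatic 0.38, HISAT2 2.2.1, featureCounts and the build GRCm38. Not given in the sources used here were the annotation release, the strand setting and how multi-mapping reads were handled, so overlapping or antisense genes and genes with close copies are uncertain. The deposited table holds unnormalized whole-number counts of 55487 genes in 18 libraries. GENCODE M21 held 55227 of the IDs, and 260 had no symbol. A second deposited table, of library descriptions, was not used.

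edgeR 4.0.16 (R 4.3.3) kept 13150 genes by filterByExpr (minimum count 10, minimum total 15). TMM factors and a robust quasi-likelihood model were fitted to all libraries, with 9 blocks (1 per time and experiment number) and a population effect per time (6 residual degrees of freedom; common biological coefficient of variation 0.144). The mean effect, each effect and their change over time were tested with edgeR's quasi-likelihood method at a threshold of 0.05 after Benjamini-Hochberg adjustment. Replicates varied 4.56 to 8.90 times as much as sampling alone gives, and none was a duplicate. Where the triplicates are technical, p-values measure only that spread. The step was tested on simulated data (12904 genes): it recovered 46.2% of genes changed 1.41-fold, 92.3% of those changed 2-fold and 100% of those changed 4-fold in the mean difference, and 8 unchanged genes made up 4.88% of the calls. The simulated difference was the same at all times, with a common dispersion for all genes and no effect of pairs. Differences that change with time and the rule of 1 sign were therefore not covered.

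Genes were named by a rule: the checks of the sort; up to 12 per direction with the largest smallest-of-3 absolute log2FC, all 9 pairs in 1 direction and a mean of at least 5 CPM; up to 3 per list by adjusted p; up to 5 called at each time with an absolute mean log2FC of at least 1 and the smallest range; the 5 with the strongest change over time; the 5 most significant without 1 sign; those at the threshold; and 9 genes of polyamine metabolism and hypusination. Nrp1, Cdkn1a, Ier2 and the genes of the closing observations lie outside it and were chosen after their values were seen. Alternatives were DESeq2 1.42.0, limma 3.58.1 voom with quality weights, RLE factors, no filter, no block, 1 common population effect, removal of mitochondrial and ribosomal counts, a 2-fold minimum, means over 2 times, and each experiment and each pair left out. Python 3.11.15, pandas 2.3.3, numpy 2.4.6 and matplotlib 3.10.9 were used for the other steps. A result on 1 gene is not reported here.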

Additional observations from a re-analysis of the deposited data

Results flagged for a closer look

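The population difference itself differed between the times in 151 of the 394 genes of 1 direction, tested as a change over the 3 times with edgeR's quasi-likelihood test. Among the named genes that were higher in 41BB+ cells, the adjusted p of this change was as follows: Myb (0.000129), Slamf6 (0.0187), Ckap2 (0.0013), Tnfsf11 (0.000124), Klrc1 (0.0264), Itgal (0.00956), Ndufv2 (3e-05), Slc7a6 (0.0194), Jchain (0.02) and Srrm2 (0.0331). In Slamf6 the difference was largest at 72 h and in Srrm2 and Jchain at 24 h, and in the others it was largest at 0 h. Jchain rests on 1 library, as given above. Among the named genes that were lower in 41BB+ cells, the adjusted p was as follows: Pxylp1 (0.0189), Igfbp4 (1e-08), Dusp5 (0.00385), Runx1 (1.59e-05), Id2 (0.0449), Gpr183 (0.0358), Il18r1 (4.84e-09), Fosl2 (1.43e-05), Maff (7.89e-05), Pdk1 (0.00243), Cpt1a (0.000572), Klf6 (3.23e-12), Klf7 (0.00134), Gata3 (0.00626), Iqgap2 (1.37e-10) and Ppp3ca (1.44e-09). In all of these 16 the absolute difference was largest at 0 h.

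Iqgap2, a scaffold protein of the cytoskeleton, was at 76.3, 65.5 and 70.7 CPM in 41BB+ and at 350, 263 and 261 CPM in 41BB- libraries at 0 h, and its log2FC was -2.04, -0.20 and -0.30. Ppp3ca, the catalytic subunit of calcineurin, was at 45.1, 30.9 and 41.6 against 188, 143 and 125 CPM at 0 h, with a log2FC of -1.96, -0.05 and -0.0074. Slc7a6, an amino acid transporter, had a log2FC of 0.68, 0.05 and 0.04, and its mean was not called in 10 of 12 fits that left out an experiment or a pair (adjusted p 0.0559 to 0.222), nor without the replicate block (adjusted p = 0.125).

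The change was also called for named genes outside the 394, with these adjusted p-values: Tnfrsf9 (2.24e-12), Cd8a (0.00117), Cd8b1 (1.13e-11), Ybx3 (1.39e-17), Cd200 (2.25e-13), Ncl (2.29e-19), Eomes (1.2e-12), Samhd1 (1.86e-14), Eya2 (0.000153), Odc1 (3.38e-08), Srm (2.44e-14), Sms (0.000969), Amd1 (0.00778), Oaz1 (9.51e-05), Azin1 (9.23e-05), Sat1 (0.00043) and Eif5a (1.24e-16). Cd8b1, the beta chain of the CD8 coreceptor, had a log2FC of -1.15 at 0 h, -0.38 at 24 h and 0.42 at 72 h, all called, and Cd8a one of -0.35, -0.37 and 0.17.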

How the results depend on the processing

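The direction of the 394 genes in means over 2 times or with a 2-fold minimum is fixed by the rule and shows nothing of stability. The number that met the whole rule again was 307 with DESeq2, where 12 had no adjusted p, 363 with RLE factors, 364 with limma voom, 302 with no filter on low counts, 380 after removal of mitochondrial and ribosomal counts, and 279 without the replicate block. The fit without the replicate block found 1557 called means, 287 genes of 1 direction and 4 called at each time. Libraries that shared time and experiment number deviated from their group means with a correlation of 0.106 (median of 9 pairs; lowest -0.0426, 5 above 0.1), and those of other numbers at that time with -0.0634. Deviations within a group sum to 0, so the second value is tied to the first and is no separate evidence. Among the 3 libraries of the other population at their time, 14 of 18 libraries were closest to that of their number. The pairing is a hint from the data, and the block was kept because it defines the genes. A single population effect common to the times called 1 gene (1 higher, 0 lower). Requiring a 2-fold mean left 155 called means (85 higher, 70 lower), 66 genes of 1 direction (27 higher, 39 lower), 22 of them with a change over time, and 3 called at each time. With the mean over 24 and 72 h, 967 genes were called (343 higher), and 413 genes called with 1 sign at those times had a change over time. With 0 and 24 h, 4589 were called (2668 higher, 1921 lower), 3759 with 1 sign at those times (2171 higher, 1588 lower), 3222 of them with a change over time. With 0 and 72 h, 780 had 1 sign (292 higher, 488 lower), 489 of them with a change over time. Leaving out an experiment or a pair gave 1155 to 2068 called means (667 to 1190 higher, 482 to 878 lower), 221 to 447 genes of 1 direction (112 to 223 higher, 109 to 224 lower), 82 to 163 of them with a change over time, and 2 to 5 called at each time. These totals include genes outside the 394. Of the 394 genes themselves, only 182, 149 and 188 met the whole rule again without experiment 1, 2 and 3. Without a single pair, 239 to 294 of them did. Called means fell furthest without experiment 1 (1221) and experiment 2 (1155), genes of 1 direction without experiment 2 (221, 109 of them lower and 82 with a change), and genes called at each time without experiment 3 (2). Lower genes of 1 direction also moved without the 0 h pair of experiment 2 (141) and the 24 h pairs of experiments 2 (145) and 3 (148), and those with a change without the latter pairs (99 and 100). The cause of these shifts was not tested, apart from the fewer samples or times that the fits held. Over 24 and 72 h the mean reversed for Ncl (-0.36), Eya2 (0.073), Srm (-0.64), Tnfrsf9 (-0.81), Cd8b1 (0.018), Ybx3 (-0.13), Oaz1 (-0.15), Eif5a (-0.55), Odc1 (-0.19) and Azin1 (-0.17), and over 0 and 24 h for Sat1 (-0.0022) and Amd1 (0.24). Over the fits that left out an experiment or a pair, the mean of Amd1 ran from -0.066 to 0.040 and was reversed in 7 of 12. None of these 12 was of 1 direction.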

Other observations

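Families of receptors and adaptors not described above also had members among the 394 genes, and they were picked after their values were seen. Their counts are therefore a description, to be read beside the 3.0% of all genes tested that were of 1 direction. Of 5 tested retinoid receptors, Rara, Rarg and Rxra, nuclear receptors of retinoic acid, had a negative fitted difference at all times. The others, Rarb (log2FC -0.90, -0.41 and 0.48) and Rxrb (0.04, 0.17 and 0.27), had no called mean difference. Rara and Rarg were called at 0 h alone, and Rxra at 0 h and 72 h. Rarg stood at 17.4, 11.2 and 14.7 CPM in 41BB+ and at 41.8, 55.7 and 72.7 CPM in 41BB- libraries at 0 h, and its log2FC was -1.97, -0.68 and -0.14. Rxra was at 13.5, 8.87 and 15.0 against 27.3, 25.9 and 22.9 CPM at 0 h and had a log2FC of -1.04, -0.10 and -0.53, and Rara had one of -0.61, -0.15 and -0.17. Of 3 tested protease-activated receptors, F2r, the thrombin receptor, and F2rl1, a receptor activated by trypsin-like proteases, had a negative fitted difference at all times. F2rl3 (log2FC -0.94, 0.40 and -1.66) had no called mean difference. F2r was called at 0 h and 72 h, and F2rl1 at 0 h and 24 h. F2rl1 was at 9.13, 12.6 and 14.2 against 58.9, 61.3 and 60.3 CPM at 0 h (log2FC -2.35, -1.16 and -0.23), and F2r at 13.8, 16 and 11.8 against 47.1, 37.6 and 41.6 CPM (log2FC -1.61, -0.40 and -0.76).

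Sh2d1a (SAP), the adaptor of SLAM family receptors, had a positive fitted difference at all times, at 57.1, 45.2 and 50.5 CPM in 41BB+ and at 23.2, 27.6 and 37.7 CPM in 41BB- libraries at 0 h (log2FC 0.78, 0.69 and 0.21). It was called at 0 h and 24 h. Of 7 tested SLAM family receptors, Slamf6 was the 1 gene of 1 direction, and Slamf7 had a log2FC of 2.70, -0.73 and -2.17, called at each time. Sh2d2a, a T cell adaptor, had its difference at 72 h, at 184, 230 and 221 against 129, 125 and 97.9 CPM (log2FC 0.11, 0.16 and 0.89). Of 4 tested Ikaros family genes, Ikzf2 was the 1 gene of 1 direction, and Ikzf3 (Aiolos) had a log2FC of 0.67, -0.37 and 0.75. Adora2a, a receptor of adenosine, was higher at 0 h, at 43.3, 45.8 and 51.3 against 13.9, 12.3 and 15.4 CPM (log2FC 1.74, 0.34 and 0.54). Pou2af1, a coactivator of octamer-binding factors, was at 104, 95.0 and 115 against 3.10, 6.16 and 11.5 CPM at 0 h and at 6.58, 5.24 and 5.39 against 3.95, 0.291 and 1.42 CPM at 72 h (log2FC 3.96, 0.12 and 1.68).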
